A study of Rattus norvegicus with 6 samples.

Results

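The endoplasmic reticulum (ER) chaperones and genes of the unfolded protein response were examined in rat adipose-derived mesenchymal stem cells given branched chain amino acids. The set holds 32 genes, taken by symbol from a fixed list of ER chaperones, disulfide isomerases, stress sensors and degradation factors. All 32 had a row among the 21857 genes of the count table, and 31 passed the low-count filter. The cells are stromal cells of Sprague Dawley rat fat, grown with 10% serum in a medium that lacked leucine, isoleucine and valine, the branched chain amino acids (BCAA). The BCAA group (3 libraries) received 3.432 mM BCAA for 12 h in 100 µM hydrogen peroxide. The vehicle group (3 libraries) received vehicle for 12 h in the same 100 µM hydrogen peroxide. Both groups were thus under oxidant, and a group without hydrogen peroxide or in ordinary medium was not analysed here. The comparison cannot tell an excess of BCAA from the end of their absence.

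Secreted and membrane proteins enter the ER through a channel, fold there with chaperones and disulfide isomerases, and are sent to the proteasome when folding fails. When unfolded proteins build up, the sensors IRE1 (Ern1), PERK (Eif2ak3) and ATF6 (Atf6) are activated, and XBP1 and cleaved ATF6 switch on chaperone and degradation genes while PERK slows translation. Stromal cells secrete much collagen and other matrix, and so depend on this machinery. Activation of the sensors takes place on their proteins, and that of Xbp1 by splicing of its mRNA, so counts per gene do not measure either.

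No gene of the set passed the test, and the differences between the groups were small. With edgeR's quasi-likelihood test adjusted over all genes, 0 of 31 were called at an adjusted p under 0.05, where 28 of 12298 genes tested were called (0.228%). DESeq2 also called 0 of 31, where it called 1.03% of all genes, and gave 1 of 31 an unadjusted p under 0.05, against 9.31% of all genes. At an unadjusted p under 0.05 edgeR gave 2 of 31 (6.45%), Hspa5 and Creld2, both lower with BCAA, against 11.8% of all genes. Log2 fold changes, here always BCAA over vehicle, ran from -0.15 to 0.14, with 20 genes lower and 11 higher in sign and a median of -0.058. The median over all genes tested was 0.0035. The greatest difference was 1.11-fold. For 28 of the 31 genes (90.3%) the 95% interval of the fold change lay within 1.25-fold in either direction, which held for 39.3% of all genes, and for all 31 it lay within 1.5-fold. The genes of the set were well counted, with a median standard error (SE) of 0.070 on the log2 scale against 0.11 over all genes tested.

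**Figure D1:**
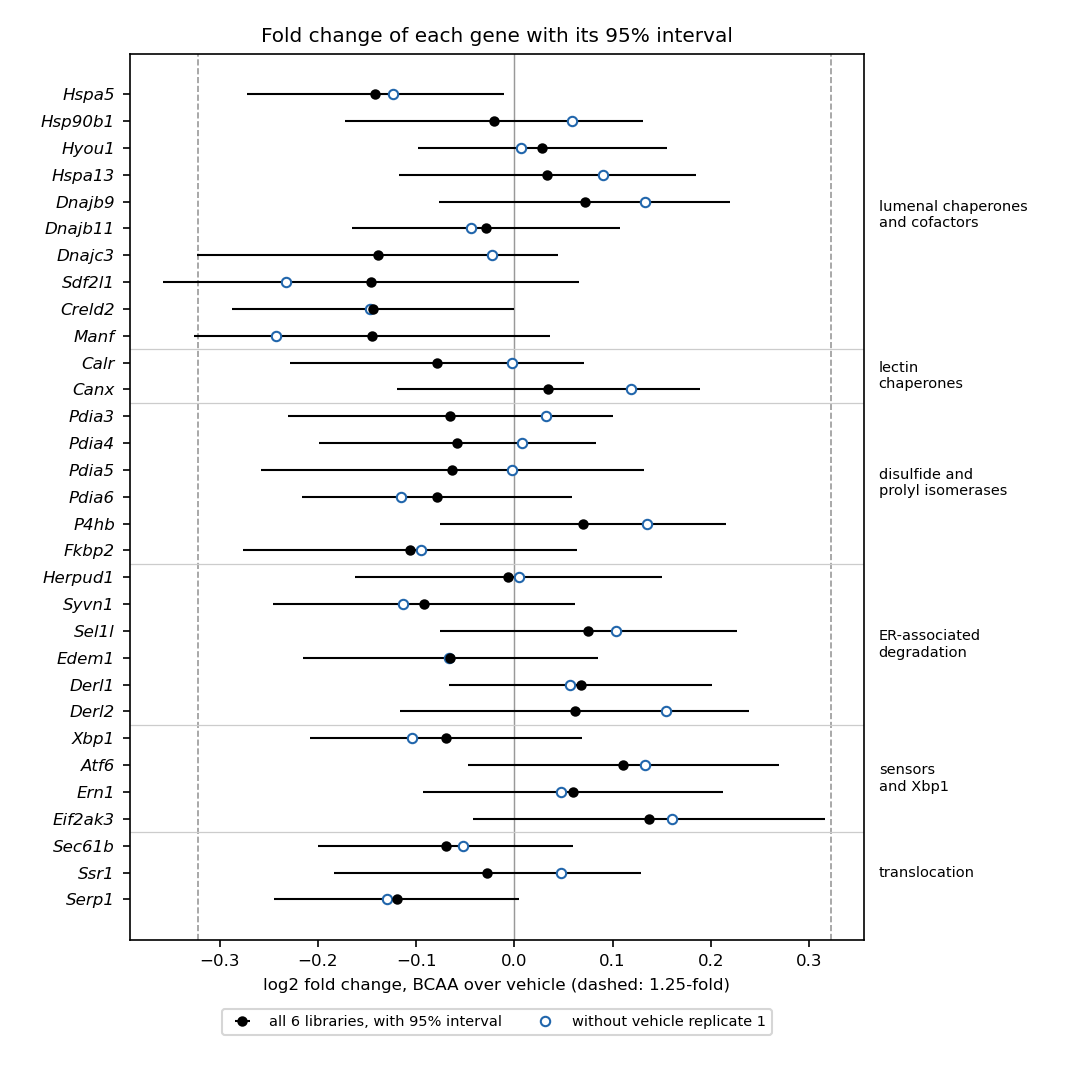
Log2 fold change of each tested gene, BCAA over vehicle, by role. Black points with bars give the fit of all 6 libraries with its 95% interval, open blue points the fit without vehicle replicate 1, and dashed lines a 1.25-fold difference in either direction. All 31 black points lie between -0.15 and 0.14.

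**Figure D2:**
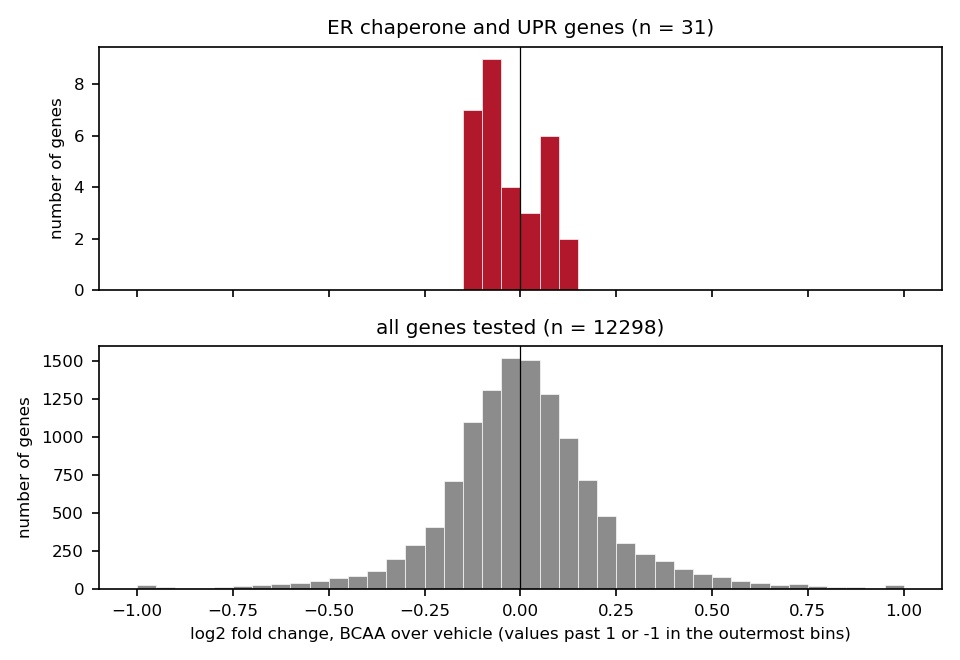
Number of genes by log2 fold change, BCAA over vehicle, in bins of 0.05 for the 31 ER genes (top) and for all 12298 genes tested (bottom), where values past 1 or -1 are in the outermost bins. The ER genes lie in the centre of the wider distribution.

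Library totals were 12802663 to 15654060 counts with BCAA and 12725344 to 15739731 with vehicle. Vehicle replicate 1 stood apart. Without it 500 of the 12298 genes were called (4.07%), and with each other library left out in turn 7 to 11 were called. Levels are given as CPM, the count of a gene scaled to the size of its library, and are not divided by gene length, so genes are not compared with each other in level. All 7 stromal markers sought (Thy1, Nt5e, Eng, Cd44, Itgb1, Pdgfra and Pdgfrb) were expressed, with a summed level of 5047 to 5149 CPM in the BCAA libraries and 4794 to 5213 CPM in the vehicle libraries. Fat cell markers summed to less than 1 CPM in every library (0 of 4 tested) and endothelial ones to 3.36 to 4.93 CPM with BCAA and 4.08 to 5.52 CPM with vehicle (1 of 5 tested). Of 6 leukocyte markers 5 were tested and none was called. They summed to 753 to 813.4 CPM with BCAA and 815.2 to 983.4 CPM with vehicle, most of it the lysozyme gene Lyz2, which was chosen for mention after its values were seen. Of the 5, Lyz2 and Cd14 were lower in sign and Ptprc, Cd68 and Csf1r higher. Among plasma cell markers, a type rich in ER chaperones, 1 of 4 was tested, Sdc1, which stromal cells also express. No marker found in the table was at 0 in all libraries. The part of other cell types in the results was not tested, and fewer cells of a type cannot be told apart from less RNA per cell.

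The promoters of these genes are known for the ER stress response element (ERSE), bound by ATF6 and XBP1, which was first defined in the promoters of such chaperones. It was sought in the RefSeq promoter windows of rat build GRCr8, each from 250 bases before to 50 after an annotated start site, as CCAAT and CCACG with 9 bases of any kind between them, on both strands. Of the 26 genes of the set with a window, 8 (30.8%) held it, and 7 of these are given here: Hspa5, Hsp90b1, Dnajc3, Creld2, Calr, Xbp1 and Derl3. Over all 33469 windows the share was 0.0657% (22 windows). It was 0.118% over the 15224 windows of genes with a row in the count table, whether or not they had counts. A related form, ERSE-II, was sought as ATTGG and CCACG with 1 base between them, and stood in 3 genes of the set, Hyou1, Dnajb11 and Herpud1, against 0.0508% of all windows. The XBP1 motif UPRE (TGACGTGG) stood in 1 gene, Hyou1, where it overlapped an ERSE-II match, and in 0.595% of all windows. The other 6 genes of the set, Manf, Pdia3, Pdia6, Derl1, Atf6 and Ern1, had no window. These matches describe the letters of the windows, and the GRCr8 assembly differs from the rn6 build named for the counts.

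The ERSE matches of these 7 genes are shown with 10 bases on either side, since the ERSE was more frequent in the windows of the set than in all windows. Each is written 5′ to 3′ along the strand that reads CCAAT first, with the fixed letters in capitals. For Hsp90b1 (second match), Creld2, Calr and Derl3 that strand is the one opposite to the gene.
Hspa5, chr3:38452963-38453001, gene on the + strand: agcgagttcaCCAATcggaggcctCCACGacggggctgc
Hsp90b1, first match, chr7:23012441-23012479, gene on the - strand: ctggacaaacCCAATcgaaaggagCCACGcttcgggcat
Hsp90b1, second match, chr7:23012337-23012375, gene on the - strand: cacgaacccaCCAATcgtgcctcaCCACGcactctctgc
Dnajc3, chr15:102432524-102432562, gene on the + strand: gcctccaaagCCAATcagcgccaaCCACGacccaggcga
Creld2, chr7:121789229-121789267, gene on the + strand: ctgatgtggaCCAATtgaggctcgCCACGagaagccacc
Calr, chr19:40213125-40213163, gene on the + strand: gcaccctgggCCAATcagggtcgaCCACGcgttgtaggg
Xbp1, chr14:84604548-84604586, gene on the + strand: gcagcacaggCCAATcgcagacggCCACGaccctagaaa
Derl3, chr20:12766591-12766629, gene on the - strand: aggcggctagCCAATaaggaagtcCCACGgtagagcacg

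The ERSE-II matches follow in the same way, each along the strand that reads ATTGG first. For both matches of Hyou1 that strand is opposite to the gene.
Hyou1, nearer the start site, chr8:53602784-53602814, gene on the + strand: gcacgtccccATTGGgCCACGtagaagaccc
Hyou1, farther from the start site, chr8:53602684-53602714, gene on the + strand: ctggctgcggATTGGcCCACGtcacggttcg
Dnajb11, chr11:91672790-91672820, gene on the - strand: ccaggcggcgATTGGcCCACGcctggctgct
Herpud1, chr19:10614811-10614841, gene on the - strand: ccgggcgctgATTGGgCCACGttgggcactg

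**Figure D3:**
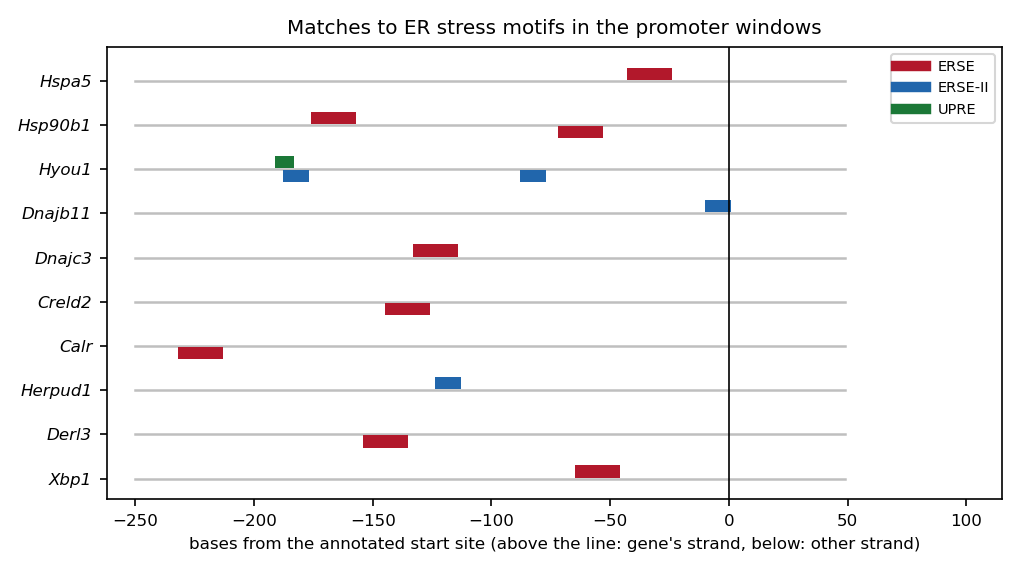
Position of each match shown, in bases from the annotated start site at 0, for 10 genes with a match. Red bars are ERSE, blue ERSE-II and green UPRE, above the line on the gene's strand and below it on the other. The match of Hspa5 lies from -43 to -25 and that of Calr from -232 to -214.

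The 250 bases before the start site of Hspa5 (chr3:38452766-38453015, + strand) are shown whole, as Hspa5 had the smallest p of the set and is the usual gauge of this response. Capitals mark the fixed letters of the exact ERSE match, and looser forms of the motif were not sought. Of the bases, 61.6% are G or C.
Hspa5: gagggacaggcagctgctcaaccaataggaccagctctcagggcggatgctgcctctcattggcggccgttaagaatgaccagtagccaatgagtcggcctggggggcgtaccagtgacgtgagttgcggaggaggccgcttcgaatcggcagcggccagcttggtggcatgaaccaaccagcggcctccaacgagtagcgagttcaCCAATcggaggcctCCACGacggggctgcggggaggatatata

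Of the 10 tested genes with an ERSE or ERSE-II, none was called, 8 were lower and 2 higher in sign, and the median log2 fold change was -0.049, with a range from -0.14 to 0.034. The 15 tested genes whose window held neither had a median of -0.058 and a range from -0.15 to 0.14. The range of the genes with a match lay within that of the more numerous genes without one. A range widens with the number of genes, and whether genes with a match differ from the others was not tested. Genes that hold only a looser form of a motif count here as without a match.

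Among the lumenal chaperones, Hspa5 encodes BiP, the main HSP70 chaperone of the ER. It was at 3634, 3850 and 3866 CPM in BCAA replicates 1 to 3, against 4260, 4156 and 4104 CPM in vehicle replicates 1 to 3. All BCAA libraries lay below all vehicle libraries. The mean was 3783 CPM for BCAA (SD 130, n = 3) and 4173 CPM for vehicle (SD 79.4, n = 3), a log2 fold change of -0.14 (SE 0.061). The edgeR unadjusted p was 0.036 and the adjusted p 0.38, which ran from 0.19 to 0.74 over the alternatives, so the gene was not called. Its 95% interval ran from -0.27 to -0.011.

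Creld2, an ER protein with EGF-like domains that is induced by ER stress, showed the same order. It was at 107, 117 and 113 CPM in the BCAA libraries and at 123, 128 and 122 CPM in the vehicle libraries. The groups did not overlap, and the log2 fold change was -0.14 (SE 0.067, edgeR adjusted p = 0.42). Creld2 overlaps Alg12 in the RefSeq table, and without the strand setting of the counting reads of the pair cannot be told apart with certainty.

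Manf, a secreted ER stress protein with neurotrophic activity, was at 365, 383 and 373 CPM with BCAA and at 353, 464 and 421 CPM with vehicle. Vehicle replicate 1 was the lowest of the 6 libraries and the other vehicle libraries the highest. The log2 fold change was -0.14 (SE 0.084, edgeR adjusted p = 0.53). Without vehicle replicate 1 it was -0.24 (SE 0.054), and Manf was the only gene of the set called in that fit (edgeR adjusted p = 0.012, with 0.012 to 0.88 over all alternatives). That is 1 of 31, where 4.07% of all genes were called.

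Sdf2l1, a partner of the co-chaperone DNAJB11, was also lower in vehicle replicate 1 than in the other vehicle libraries. It was at 65.9, 74.9 and 67.9 CPM with BCAA and at 67.2, 89.1 and 74.4 CPM with vehicle, so the groups overlapped. The log2 fold change was -0.15 (SE 0.099), the farthest from 0 of the set, and its edgeR adjusted p was 0.60. Without vehicle replicate 1 it was -0.23, with an edgeR adjusted p of 0.11, the lowest over the alternatives, where the highest was 0.95.

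Dnajc3 encodes p58IPK, a co-chaperone of BiP, and varied with the same vehicle library in the other direction. It was at 184, 170 and 184 CPM with BCAA and at 227, 185 and 179 CPM with vehicle. The log2 fold change of -0.14 (SE 0.086, edgeR adjusted p = 0.55) was -0.023 without vehicle replicate 1.

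The remaining lumenal chaperones showed smaller differences. Hsp90b1, the HSP90 of the ER known as GRP94, was at 2676, 2715 and 2784 CPM with BCAA and at 3049, 2656 and 2589 CPM with vehicle, with a log2 fold change of -0.021 (SE 0.071). Its highest value was in vehicle replicate 1 and its lowest values in the other vehicle libraries, so its sign turned without that library (0.058) and without scaling factors (0.010). Hyou1, a large HSP70 relative that exchanges the nucleotide of BiP, had a mean of 467 CPM in the BCAA libraries (SD 9.82, n = 3) and of 458 CPM in the vehicle libraries (SD 15.3, n = 3). For Hspa13, another HSP70 relative, the log2 fold change was 0.034 (SE 0.070). For the BiP co-chaperones it was 0.071 for Dnajb9 (SE 0.069) and -0.029 for Dnajb11 (SE 0.063). The groups overlapped in these 5 genes, and the sign of Dnajb11 turned without scaling factors.

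**Figure D4:**
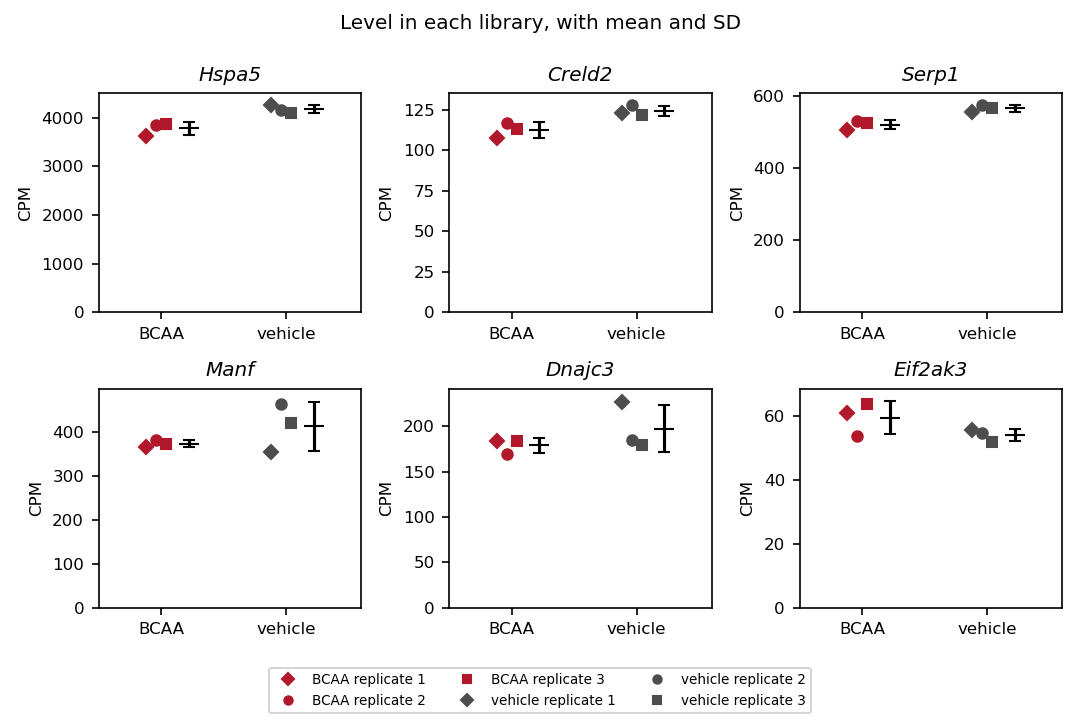
CPM in each library (symbols by replicate) with the mean and SD of each group (bars, n = 3) for 6 genes of the set, each axis starting at 0. BCAA and vehicle do not overlap for Hspa5, Creld2 and Serp1, and vehicle replicate 1 is the lowest library for Manf and the highest for Dnajc3.

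The lectin chaperones Calr and Canx hold newly made glycoproteins during folding, calreticulin in the lumen and calnexin in the membrane. Calr was at 1926, 1955 and 2035 CPM with BCAA and at 2289, 1994 and 1964 CPM with vehicle, a log2 fold change of -0.079 (SE 0.070). Canx was at 1397, 1323 and 1399 CPM with BCAA and at 1487, 1268 and 1267 CPM with vehicle, a log2 fold change of 0.034 (SE 0.072). In both genes vehicle replicate 1 was the highest library and the groups overlapped.

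The disulfide isomerases form and reshuffle the bonds between cysteines. P4hb, which encodes PDI and is also a subunit of the collagen prolyl 4-hydroxylase, was at 2958, 3072 and 3180 CPM with BCAA and at 3168, 2806 and 2800 CPM with vehicle. Its log2 fold change was 0.070 (SE 0.068). Pdia3, the isomerase ERp57 that works with calnexin and calreticulin, was at 1453, 1451 and 1564 CPM with BCAA and at 1755, 1447 and 1473 CPM with vehicle, a log2 fold change of -0.065 (SE 0.077). Pdia4, Pdia5 and Pdia6, further members of the family, had log2 fold changes of -0.058, -0.063 and -0.079. Fkbp2, a prolyl isomerase, had a mean of 59.9 CPM in the BCAA libraries (SD 3.65, n = 3) and of 64.5 CPM in the vehicle libraries (SD 3.39, n = 3), a log2 fold change of -0.11 (SE 0.079). The groups overlapped in all 6 genes of this role, with edgeR adjusted p from 0.64 to 0.83. Pdia3 overlaps Catsper2 in the RefSeq table. Pseudogenes are annotated there for Pdia4, Hsp90b1 and Derl1, none with a row in the count table. Reads of these genes may be shared or left uncounted. Several further genes of the set, Dnajc3 and Herpud1 among them, overlap RefSeq entries that have no row in the count table.

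The genes of ER-associated degradation were divided in sign, 3 higher and 3 lower. Syvn1, the ubiquitin ligase HRD1, was at 81.8, 80.2 and 76.9 CPM with BCAA and at 82.0, 89.7 and 83.0 CPM with vehicle. All BCAA libraries lay below all vehicle libraries, by a narrow margin, and the log2 fold change was -0.092 (SE 0.072, edgeR adjusted p = 0.65). Syvn1 overlaps Mrpl49 in the RefSeq table. For its partner Sel1l the log2 fold change was 0.075 (SE 0.070). Herpud1, a membrane component of the same complex and a target of the response, was at 156, 171 and 186 CPM with BCAA and at 174, 174 and 167 CPM with vehicle, a log2 fold change of -0.0062 (SE 0.073). The BCAA libraries lay on both sides of the vehicle libraries.

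Edem1, a lectin that marks misfolded glycoproteins, had a mean of 123 CPM in the BCAA libraries (SD 4.39, n = 3) and of 129 CPM in the vehicle libraries (SD 7.69, n = 3). Derl1 and Derl2, derlins that help to move proteins out of the ER, differed by 0.067 (SE 0.062) and 0.061 (SE 0.083) on the log2 scale, and in each the groups overlapped. Derl3 had a count of 0 in all 6 libraries, which allows at most 0.192 to 0.234 CPM in the BCAA libraries and 0.191 to 0.236 CPM in the vehicle libraries (3 counts per library, counting error only), and it was not tested.

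The sensors were higher in sign and Xbp1 lower, with no call. Eif2ak3 (PERK), a kinase that slows translation, was at 61.1, 53.8 and 63.7 CPM with BCAA and at 55.6, 54.6 and 52.0 CPM with vehicle. BCAA replicates 1 and 3 lay above the vehicle libraries and BCAA replicate 2 among them. The log2 fold change was 0.14 (SE 0.084, edgeR adjusted p = 0.55), the highest of the set, with a 95% interval from -0.042 to 0.32. Atf6, the membrane-bound factor released by cleavage, was at 133, 119 and 113 CPM with BCAA and at 116, 113 and 110 CPM with vehicle. Its log2 fold change was 0.11 (SE 0.074, edgeR adjusted p = 0.59), and BCAA replicate 3 fell among the vehicle libraries.

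Ern1 (IRE1), the kinase and nuclease that splices Xbp1, was at 111, 104 and 104 CPM with BCAA and at 99.6, 97.5 and 109 CPM with vehicle, a log2 fold change of 0.060 (SE 0.071). Xbp1, which encodes the factor that drives chaperone and degradation genes, was at 204, 208 and 212 CPM with BCAA and at 207, 231 and 217 CPM with vehicle, a log2 fold change of -0.070 (SE 0.064). Both genes overlapped between the groups. Spliced and unspliced Xbp1 are counted together.

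Of the genes for entry into the ER, Serp1, which stabilises new membrane proteins at the channel and is also called RAMP4, was at 506, 532 and 527 CPM with BCAA and at 556, 575 and 569 CPM with vehicle. The groups did not overlap, and the log2 fold change was -0.12 (SE 0.058, edgeR adjusted p = 0.44). Sec61b, a subunit of the channel, was at 220.0, 225 and 232.4 CPM with BCAA and at 242, 232.5 and 237 CPM with vehicle. Its groups were just separate, and the log2 fold change was -0.070 (SE 0.060, edgeR adjusted p = 0.69). For Ssr1, a subunit of the translocon-associated TRAP complex, the log2 fold change was -0.028 (SE 0.073), the groups overlapped, and the sign turned without scaling factors.

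In all, the BCAA libraries lay below all vehicle libraries in 5 of the 31 genes (16.1%), Hspa5, Creld2, Syvn1, Sec61b and Serp1, against 8.76% of all genes tested. They lay above all vehicle libraries in 0 of 31, against 9.29% of all genes. None of the 5 was called.

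The libraries were unevenly spread over the ER set. BCAA replicate 1 was the lowest library for 13 of the 31 genes (41.9%), against 19.3% of all genes tested, and vehicle replicate 2 was the highest for 9 (29.0%), against 17.1%. Vehicle replicate 1 was the highest library for 11 of the 31 genes (35.5%) and the lowest for 3, Hyou1, Manf and Derl1 (9.68%), against 23.6% and 24.7% of all genes tested. It was thus the highest or lowest library for 45.2% of the set and for 48.4% of all genes. On the log2 scale its level minus the mean of the other vehicle libraries was 0.32 for Dnajc3, 0.27 for Pdia3, 0.25 for Derl2, 0.23 for Canx, 0.22 for Hsp90b1 and 0.21 for Calr and Ssr1. It was -0.32 for Manf and -0.28 for Sdf2l1, and the remaining genes differed by less than these. Among the 18 chaperones and isomerases, 12 were higher in vehicle replicate 1 than in the mean of the other vehicle libraries and 6 were lower.

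**Figure D5:**
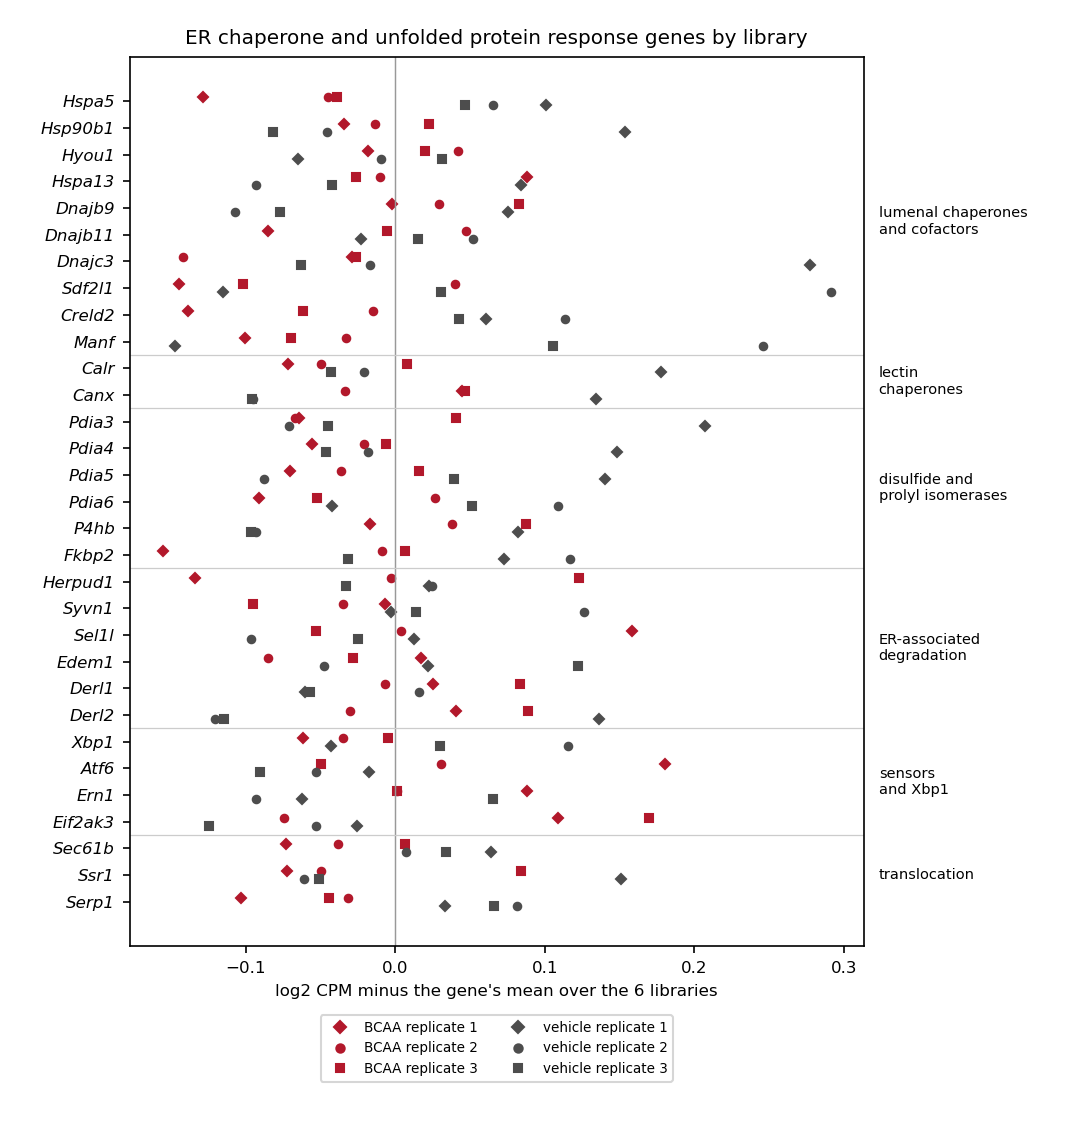
Log2 CPM of each tested gene in each library minus the gene's mean over the 6 libraries, by role, with BCAA libraries in red just above and vehicle libraries in grey just below each gene's line. Vehicle replicate 1 (grey diamonds) is the highest library for 11 of 31 genes, while it is the lowest for 3, Hyou1, Manf and Derl1.

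Without vehicle replicate 1 the median log2 fold change was 0.0051, and 10 of 31 genes (32.3%) had an unadjusted p under 0.05 with edgeR, 4 higher and 6 lower, against 18.5% of all genes. The lower ones were Hspa5, Sdf2l1, Creld2, Manf, Pdia6 and Serp1, and the higher ones Dnajb9, Canx, P4hb and Derl2. Of these 10 only Manf was called. The interval of Hspa5 lay below 0 with all libraries, and its log2 fold change was -0.12 without vehicle replicate 1.

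Taken as a sum, the 32 genes held 2.04%, 2.06% and 2.09% of all counts in BCAA replicates 1 to 3 and 2.15%, 2.06% and 2.04% in vehicle replicates 1 to 3. The means were 2.07% ± 0.0220 with BCAA and 2.08% ± 0.0544 with vehicle (SD, n = 3 each), so the difference was smaller than the spread. The sum of the 10 lumenal chaperones, of which Hspa5 has the most counts, was 0.819% to 0.839% with BCAA and 0.850% to 0.873% with vehicle, without overlap. This separation rested on Hspa5, since the summed CPM of the other lumenal chaperones overlapped between the groups. Taken singly, 7 of the 10 were lower and 3 higher in sign, and the groups overlapped in 8. The sums of the isomerases were 0.630% to 0.653% with BCAA and 0.614% to 0.658% with vehicle, and those of the lectin chaperones 0.331% to 0.343% with BCAA and 0.324% to 0.364% with vehicle. The sum of the translocation genes was also lower without overlap, at 0.112% to 0.117% with BCAA and 0.118% to 0.119% with vehicle. That of the degradation genes was higher, at 0.0875% to 0.0917% with BCAA and 0.0854% to 0.0872% with vehicle, without overlap but narrowly. These shares use unscaled totals, on which the median log2 fold change of all genes tested was 0.033. In scaled CPM the summed levels of the degradation genes overlapped between the groups. The sensors and Xbp1 overlapped, at 0.0489% to 0.0520% with BCAA and 0.0460% to 0.0496% with vehicle. No test was made on these sums.

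Other genes of the pathway were read from lists of 85 symbols, of which 82 were found and 79 tested. With edgeR 1 of the 79 was called, higher with BCAA, and 0 were called lower, where 0.228% of all genes tested were called. DESeq2 called 2, where it called 1.03% of all genes tested. At an unadjusted p under 0.05 edgeR gave 6 higher and 7 lower (16.5%), against 11.8% of all genes tested. The gene called with edgeR was Atf3, a stress-induced transcription factor downstream of PERK and ATF4 that other stresses also induce. It was at 69.7, 77.1 and 81.6 CPM with BCAA and at 49.0, 47.0 and 42.6 CPM with vehicle (log2 fold change 0.72, SE 0.086, edgeR adjusted p = 0.0015), without overlap. With the replicate number as a block its edgeR adjusted p was 0.105 (2.8e-09 to 0.105 over the alternatives). Atf4 and Ddit3 (CHOP), of the same list and named here after their values were seen, were not called. Their log2 fold changes were -0.0043 for Atf4 (SE 0.076) and 0.094 for Ddit3 (SE 0.072). Counts per gene do not measure ATF4 protein, and the cause of the Atf3 difference was not tested. In the list of PERK and ATF4 outputs 8 of 10 tested were higher in sign, with a median of 0.11. At an unadjusted p under 0.05 edgeR gave 4 of these 10 (40%), all higher, against 11.8% of all genes tested. The BCAA libraries lay above all vehicle libraries in 5 of the 10, against 9.29% of all genes. They lay below in 0 of the 10, against 8.76%. This list, which holds Atf3, was chosen with earlier results of these data known, so its shares are a description only. Trib3, a pseudokinase, and Sesn2, a stress-induced inhibitor of mTORC1, differed by 0.29 (SE 0.079) and 0.24 (SE 0.070) on the log2 scale, with edgeR adjusted p of 0.15 and 0.17.

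Among the related membrane-bound factors and their proteases none of 6 tested was called. Creb3l1 (OASIS), an ER-bound factor that drives collagen genes, came closest. It was at 51.9, 51.8 and 49.9 CPM with BCAA and at 61.6, 65.7 and 68.8 CPM with vehicle, without overlap (log2 fold change -0.35, SE 0.076). Its edgeR adjusted p was 0.071, and it passed the threshold, lower, in 3 alternatives: DESeq2, no filter on low counts, and the fit that left out vehicle replicate 1, which gave an adjusted p of 0.0032 (0.0032 to 0.31 over the alternatives). Creb3 and the ATF6 relative Atf6b differed by -0.14 (SE 0.072) and -0.11 (SE 0.090) on the log2 scale.

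Of 29 further folding genes tested none was called (median -0.084, 8 higher and 21 lower in sign). Ero1a, the oxidase that recharges PDI and is also induced by hypoxia, had a mean of 211 CPM in the BCAA libraries (SD 13.2, n = 3) and of 180.0 CPM in the vehicle libraries (SD 12.8, n = 3), a log2 fold change of 0.23 (SE 0.073, edgeR adjusted p = 0.22). Tmx1, a membrane-bound isomerase, and Cnpy2 differed by 0.13 (SE 0.059) and -0.16 (SE 0.072) on the log2 scale. Of 19 further degradation genes none was called (median -0.055). For Edem2, which starts mannose trimming, the log2 fold change was -0.25 (SE 0.087, edgeR adjusted p = 0.27). Hm13, the signal peptide peptidase, and Rnf5, a ubiquitin ligase, had -0.15 (SE 0.062) and -0.16 (SE 0.081). Of 15 further translocation genes none was called (median -0.075), with Sec11c, a signal peptidase subunit, at -0.17 (SE 0.078), Ssr2 at -0.14 (SE 0.066) and Sec61a2 at 0.18 (SE 0.087). Without vehicle replicate 1, Edem2 was called lower (edgeR adjusted p = 0.017, with 0.017 to 0.58 over the alternatives). So was the folding gene Fkbp11, named after its values were seen (edgeR adjusted p = 0.047, with 0.047 to 0.85 over the alternatives). In that fit 4 of the 79 other pathway genes tested were called, Atf3 and Creb3l1 among them, where 4.07% of all genes were called.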

How the data were processed

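The authors deposited 1 table of whole-number counts, with a row per symbol and a column for each of 6 libraries. It was neither scaled nor pooled. Per the submitters' processing notes, the tools included Trimmomatic, FastQC, STAR and HTSeq, and the build was rn6. The strand setting, the annotation and the tool versions were not given in the sources used here. Columns were matched to libraries by title. Totals were 12725344 to 15739731 counts.

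All 6 libraries were fitted with edgeR 4.0.16 (R 4.3.3; TMM scaling, filterByExpr with minimum count 10 and minimum total 15, robust quasi-likelihood F test, group as the only term). P-values were adjusted over all 12298 genes with Benjamini-Hochberg, and a gene was called below 0.05. The SE is the log2 fold change divided by the square root of F, and intervals use the same degrees of freedom. CPM use TMM-scaled library sizes, while shares of counts use unscaled totals. The fits were tested on simulated counts. Alternatives were DESeq2 1.42.0, median-ratio factors, no scaling factors, no filter, each library left out, and the replicate number as a block. Libraries of each pair differed beyond sampling noise (chi-square over genes).

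The members and lists were chosen with earlier results of these data known. Of the 111 symbols outside the set 106 were found, 3 under another RefSeq name. Every member is named, and of each other pathway list the 3 genes with the smallest p. Promoter windows are RefSeq's. The match of 1 further gene counted with them is not reported here. Protein sequences were not used here. Whether replicates are separate cultures is not stated, so the spread behind each p-value is that of these libraries and may be technical, and directions rest on the column names.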

Additional observations from a re-analysis of the deposited data

How the results depend on the processing

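No setting with all 6 libraries called a gene of the ER set. Leaving out 1 library gave 0 to 1 called (Manf, without vehicle replicate 1) and moved the median log2 fold change between -0.069 and 0.0051. Among all genes tested 28 were called, against 127 with DESeq2 and 124 without the low-count filter, and 7 to 500 with 1 library left out. Of the 79 other pathway genes tested 1 was called, where 0.228% of all genes were. DESeq2 called 2, where it called 1.03% of all genes, and 2 were called without the filter. With 1 library left out 1 to 4 were called, the 4 without vehicle replicate 1, where 4.07% of all genes were called. Library totals without scaling factors shifted the median of all genes to 0.033 and turned the sign of Hsp90b1 (0.010), Dnajb11 (4.8e-05), Herpud1 (0.023) and Ssr1 (0.0032), none called. Leaving out 1 library turned the sign of 8 genes, none called, with ranges of -0.066 to 0.058 for Hsp90b1, -0.060 to 0.0027 for Dnajb11, -0.072 to 0.053 for Herpud1, -0.077 to 0.048 for Ssr1, -0.0065 to 0.12 for Canx, -0.0062 to 0.090 for Hspa13, -0.12 to 0.032 for Pdia3 and -0.095 to 0.0080 for Pdia4. The cause was not tested. The replicate numbers were not taken as pairs, since libraries with equal numbers had correlations of -0.066, 0.10 and -0.15 between their deviations from the group means. With the number as a replicate block 6 genes were called over the table, 0 of the ER set and 0 of the other pathway genes.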
